A study of Mus musculus with 6 samples.

Results

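Collagens are the triple-helical proteins of the extracellular matrix, and 42 collagen genes were represented on the arrays by 82 of the 45037 probe sets. A probe set was taken as a member when its single gene symbol in the platform annotation consisted of Col, a number, the letter a and a number. The members were read by structural class, with 11 fibrillar genes (21 probe sets), 6 basement membrane genes of type IV (12 probe sets) and 25 other collagen genes (49 probe sets). Brown fat from between the shoulder blades (interscapular) and white fat from beside the epididymis (epididymal) came from untreated male C57BL/6 mice of 10 to 12 weeks held at ambient temperature, and each of the 3 samples per tissue was hybridised to its own 1-colour oligonucleotide array. Per the design text, both tissues were dissected from 3 mice and profiled independently. Each kind of fat came from a single depot, so that kind and depot cannot be told apart.

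Fibrillar collagens assemble into the banded fibres that give tissue its tensile strength, with types I and III as the bulk and type V inside the fibre. Type IV collagen forms the sheet of the basement membrane, which in fat surrounds every adipocyte and lines the capillaries. Type VI collagen forms beaded filaments between the basement membrane and the fibres, and the multiplexins Col15a1 and Col18a1 sit at basement membranes. In adipose tissue, most fibrillar collagen is made by fibroblasts and adipocyte progenitors, and type IV also by adipocytes and endothelial cells.

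Probe sets called present made up 35.6% to 37.5% of each brown array and 45.2% to 45.8% of each white array, and the median deposited signal was 37.6 to 39.4 in brown and 52.1 to 52.5 in white. The signals below are quantile-normalised for that reason, on a linear scale with arbitrary units, and the number of arrays limits their precision. The ratio of 3' to 5' actin signals, which rises as RNA degrades, was 1.36 to 2.24 in brown and 1.19 to 1.73 in white. The labelled tissues were checked by markers, with all 6 brown adipocyte markers higher in brown and all 6 white adipocyte markers higher in white. In the deposited table of the whole series the columns run opposite in tissue to the array files, so the direction of every difference below rests on the array files and on these markers.

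Sequences upstream of 4 genes are shown here, because the first pair and the third come from fibrillar collagens that went in opposite directions between the tissues and the fourth from a type IV gene with a large difference. Each is the 250 bases before the annotated transcription start, taken from RefSeq on GRCm38.p6, 5′ to 3′ on the gene's own strand, which is the plus strand for all 4. The windows are chr6:4505368-4505617 for Col1a2, chr1:45311288-45311537 for Col3a1, chr4:63215162-63215411 for Col27a1 and chrX:141475169-141475418 for Col4a5. Capitals mark a TATA box, a CCAAT box or a GC box on either strand, spelt out after the sequences.
Col1a2: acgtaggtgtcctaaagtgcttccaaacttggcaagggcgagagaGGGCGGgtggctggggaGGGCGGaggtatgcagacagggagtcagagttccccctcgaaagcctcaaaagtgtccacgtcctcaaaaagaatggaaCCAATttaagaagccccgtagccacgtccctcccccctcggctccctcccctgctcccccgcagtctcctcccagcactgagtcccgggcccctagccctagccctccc
Col3a1: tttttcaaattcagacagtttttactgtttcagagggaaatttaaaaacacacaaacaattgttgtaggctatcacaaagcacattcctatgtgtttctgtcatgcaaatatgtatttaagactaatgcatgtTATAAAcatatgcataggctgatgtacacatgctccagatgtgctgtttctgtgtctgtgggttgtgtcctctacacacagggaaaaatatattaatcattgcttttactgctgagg
Col27a1: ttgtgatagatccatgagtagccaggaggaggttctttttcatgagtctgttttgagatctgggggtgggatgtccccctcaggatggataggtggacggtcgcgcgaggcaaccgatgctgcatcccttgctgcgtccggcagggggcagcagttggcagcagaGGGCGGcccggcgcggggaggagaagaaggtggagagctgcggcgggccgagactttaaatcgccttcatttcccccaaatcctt
Col4a5: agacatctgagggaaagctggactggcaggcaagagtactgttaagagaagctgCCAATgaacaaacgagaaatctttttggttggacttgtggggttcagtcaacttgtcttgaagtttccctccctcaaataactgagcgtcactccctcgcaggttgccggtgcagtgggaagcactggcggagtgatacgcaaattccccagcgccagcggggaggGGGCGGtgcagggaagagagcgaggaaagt
Of the 21 collagen genes with a tested probe set, 18 had such a window, and with alternative starts there were 20 windows. The GC box, spelt GGGCGG or on the other strand CCGCCC, was found in 13 of the 20 windows (65%) against 32.7% of 32851 mouse windows of the same length. The CCAAT box, with its reverse ATTGG, was in 6 of the 20 (30%) against 33.9% of all windows. The TATA box, read as TATAAA or its reverse, was in 1 of the 20 (5%), that of Col3a1, against 12.4%. These letter matches are descriptions, counted anywhere in the window without regard to the distance from the start. The arrays do not measure factor binding.

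Of the 82 member probe sets, 34 had a present call on 3 or more of the 6 arrays and were tested, and these represent 21 of the 42 genes. By class, 7 of 11 fibrillar genes, 4 of 6 basement membrane genes and 10 of 25 other collagen genes were tested. By the probe set that stands for each gene, the tested genes include 14 present on all 6 arrays, 4 present on the 3 white arrays and on no brown array (Col4a4, Col18a1, Col8a1 and Col8a2) and 1 present on the 3 brown arrays and on no white array (Col27a1). Another Col18a1 probe set was called present on brown replicate 3. Genes of those last kinds passed the filter through the tissue where they were detected. Among the 21 untested genes, 12 had no present call on any array in any probe set. These were Col2a1, Col11a2 and Col24a1 of the fibrillar class, Col4a3 of the basement membrane class, and Col6a4, Col9a2, Col10a1, Col17a1, Col19a1, Col22a1, Col25a1 and Col26a1 of the others. The cartilage fibril collagen Col2a1 and the growth plate collagen Col10a1 were thus not detected in either tissue.

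**Figure D1:**
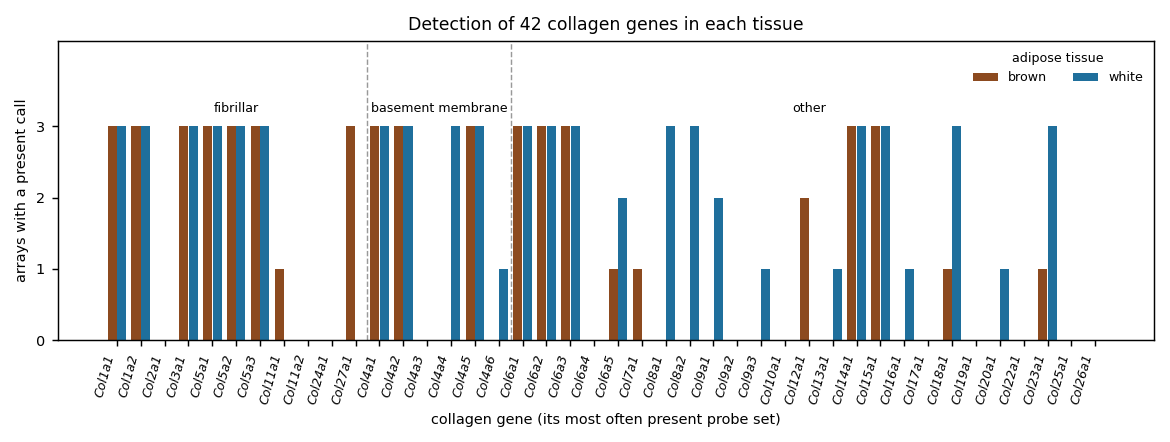
Bars give the number of arrays, out of 3 per tissue, on which the most often present probe set of each of the 42 collagen genes was called present. The chains of types I, III and V, Col4a1, Col4a2, Col4a5 and Col6a1 to Col6a3 reach 3 in both tissues, while Col27a1 reaches 3 in brown and 0 in white.

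Most tested collagen genes were higher in white adipose tissue, and Col27a1 was the only one called higher in brown. Of the 21 genes tested, 16 were higher in white, 1 was higher in brown and 4 were not called (limma, adjusted p under 0.05). Over all 10264 genes tested, 32.2% were called higher in white and 27.7% higher in brown, 60% in all. Among the genes present on all 6 arrays, which did not depend on 1 tissue for detection, 14 of 14 collagen genes were higher in white, where the share over all such genes was 30.9%, and none (0) were higher in brown, where it was 32.9% (0 also at an unadjusted p under 0.05, limma). The median log2 difference (brown minus white) was -1.63 over the tested collagen genes and -0.04 over all genes tested. A difference of at least 2-fold towards white was called for 15 of the 21 collagen genes, against 14.4% of all genes. In 17 of the 21 the brown and white signals were fully separate, against 67.3% of all genes. Over all probe sets tested, the median difference (log2) was -0.06 here, -0.53 with the deposited scaling, -0.53 with scaling to the hybridisation controls and -0.08 with arrays centred on their medians, and the collagen counts were 18, 17 and 16 higher in white with 1 higher in brown under the last 3 scalings.

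The classes lay close together. Fibrillar genes had a median log2 difference of -1.63, with 6 of 7 higher in white and 1 higher in brown. Basement membrane genes had a median of -1.81, with 4 of 4 higher in white and 0 higher in brown, also at an unadjusted p under 0.05. Other collagen genes had a median of -1.55, with 6 of 10 higher in white, 0 higher in brown (0 also at an unadjusted p under 0.05) and 4 not called. Among genes present on all 6 arrays the medians were -1.75 for 6 fibrillar, -1.55 for 3 basement membrane and -1.70 for 5 other genes, so the order of the classes was not the same in both selections. The classes were described and not tested against each other.

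**Figure D2:**
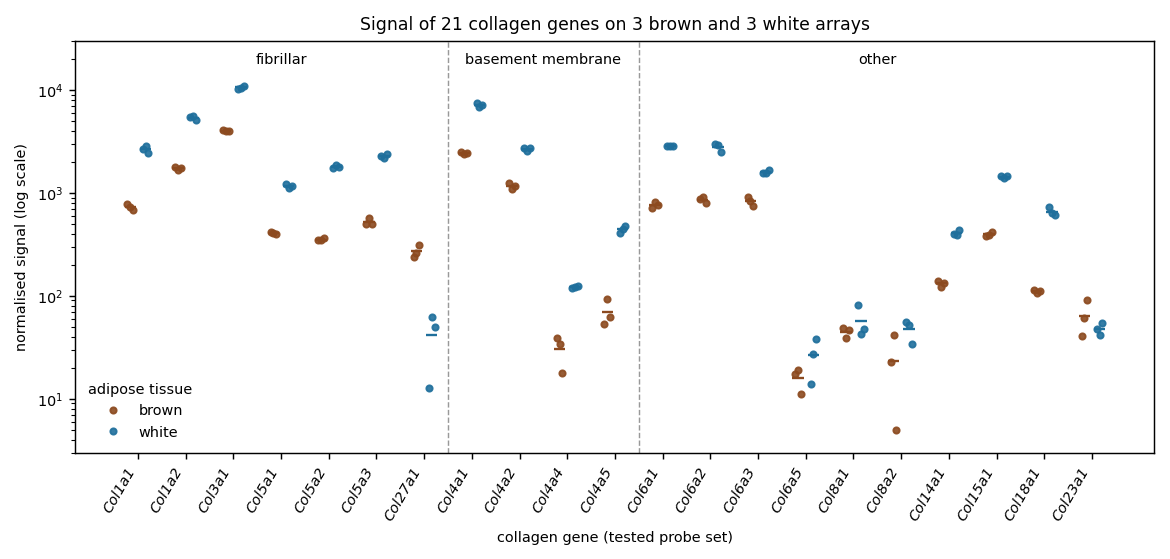
Points are normalised signals (log axis) of the probe set that stands for each of the 21 tested collagen genes on each of 3 brown and 3 white arrays, and short lines are tissue means. The points of the tissues are apart in 17 genes, with Col27a1 as the only one of these where brown lies above white.

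Type I collagen, the main fibre protein, is a trimer of Col1a1 and Col1a2 chains. Col1a1 had signals of 777, 726 and 680 on the brown arrays and 2684, 2829 and 2445 on the white arrays, a log2 difference of -1.87 ± 0.08 (SE, adjusted p = 3.16e-08). The lowest white array lay well above the highest brown one. For Col1a2 the signals were 1792, 1669 and 1731 in brown and 5422, 5582 and 5117 in white (-1.63 ± 0.05, adjusted p = 8e-09). Col3a1, the homotrimer that accompanies type I in soft tissue, had 4110, 3989 and 3968 in brown and 10282, 10417 and 10983 in white (-1.39 ± 0.04, adjusted p = 5.01e-09). The tissues were fully separate for both.

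Type V chains, which nucleate fibres and limit their width, had the same direction. Col5a1 had 415, 410 and 398 in brown against 1216, 1104 and 1163 in white (-1.51 ± 0.07, adjusted p = 1.07e-07). Col5a2 had 347, 345 and 361 in brown against 1760, 1846 and 1766 in white (-2.35 ± 0.07, adjusted p = 3.96e-09). Col5a3, a chain with a narrower range of tissues, had 497, 575 and 503 in brown against 2302, 2190 and 2365 in white (-2.13 ± 0.08, adjusted p = 1.35e-08). No type V array of one tissue came near those of the other. Type XI chains, the cartilage relatives of type V, were barely detected, with 1 present call for Col11a1 (on brown replicate 2) and none for Col11a2.

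Col27a1, a shorter fibrillar collagen best known from developing cartilage, ran the other way. Its tested probe set gave 240, 259 and 313 on the brown arrays, where it was called present, and 12.7, 62.1 and 49.6 on the white arrays, where it was called absent. All brown arrays lay above all white ones, and the geometric mean of this probe set was 7.92-fold higher in brown (log2 difference 2.99 ± 0.49, adjusted p = 0.000541). Without white replicate 1, the dimmest array for this probe set, the log2 difference was 2.28 (adjusted p = 1.27e-05). The other Col27a1 probe set gave 470, 586 and 487 in brown and 120, 82.9 and 124 in white, in the same direction (4.78-fold). It was called absent on all 6 arrays and was not tested. Among cartilage and bone genes, Col2a1 was absent throughout, Acan had mean signals of 39.0 in brown and 36.1 in white, and Sox9 had 36.6 and 32.7, neither called. Sp7, an osteoblast regulator in the same list of 7 markers, was higher in brown (95.4 against 44.5, log2 difference 1.19) although its arrays overlapped between the tissues. It lost its call with the deposited scaling (0.69, adjusted p = 0.114) and with control scaling (adjusted p = 0.0988), and the summed signal of that list was 273 to 302 in brown and 152 to 216 in white, without overlap and with Matn3 and Hapln1 absent on all arrays. The part of such cells in the Col27a1 difference was not tested.

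Type IV collagen genes were higher in white for the common and the rarer chains alike. Col4a1 had 2475, 2396 and 2427 in brown against 7401, 6857 and 7130 in white (-1.55 ± 0.05, adjusted p = 4.82e-09), and its partner Col4a2 had 1242, 1090 and 1153 against 2738, 2552 and 2695 (-1.20 ± 0.07, adjusted p = 2.33e-07). These are the chains of the widespread basement membrane, and the arrays of the tissues were separate for both. Col4a5, found in kidney and smooth muscle basement membranes, had 53.7, 92.5 and 62.1 in brown against 410, 449 and 478 in white (-2.72 ± 0.19, adjusted p = 1.41e-06), the largest difference of the 14 collagen genes present on all 6 arrays. Col4a4 was called absent on all brown arrays (38.7, 33.9 and 18.0) and present on all white arrays (119, 121 and 123), at least 4.21-fold higher in white for this probe set (adjusted p = 0.000183). Its other tested probe set was at least 3.05-fold higher in white. Col4a6, the gene next to Col4a5, was not tested. Its brighter probe set had 13.4, 16.7 and 16.7 in brown, all called absent, and 101, 123 and 95.0 in white, called present on 1 array and marginal on the others. Col4a3 had no present call.

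Beaded filament collagen followed the same direction with unequal sizes. Col6a1 had 713, 806 and 761 in brown against 2868, 2868 and 2818 in white (-1.91 ± 0.06, adjusted p = 8.41e-09), and Col6a2 had 869, 906 and 790 against 3009, 2889 and 2475 (-1.70 ± 0.09, adjusted p = 1.25e-07). Col6a3, whose C-terminal fragment is the secreted peptide endotrophin, had 904, 839 and 752 in brown against 1560, 1560 and 1653 in white (-0.94 ± 0.08, adjusted p = 4.92e-06). It was the only called collagen gene whose difference was under 2-fold. Col6a5 was near background with 17.5, 19.0 and 11.0 in brown and 13.8, 27.2 and 38 in white, and the groups overlapped (-0.65, adjusted p = 0.29).

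Both multiplexins, whose C-terminal fragments include endostatin in the case of Col18a1, were higher in white. Col15a1 had 384, 386 and 420 in brown against 1451, 1408 and 1456 in white (-1.86 ± 0.07, adjusted p = 2.21e-08). Col18a1 had 115, 107 and 111 in brown, all called absent, against 732, 635 and 602 in white, at least 5.89-fold higher for this probe set (adjusted p = 4.23e-08). Its other probe set, present on 1 brown array, had 77.0, 71.0 and 92.8 in brown against 598, 519 and 408 in white (-2.65, adjusted p = 5.56e-07). Of 9 fibril-associated collagen genes, which decorate fibre surfaces, 1 was tested: Col14a1 had 140, 121 and 133 in brown against 397, 388 and 436 in white (-1.63 ± 0.11, adjusted p = 1.18e-06). Col12a1, a relative of Col14a1, had 39.6, 80.3 and 50.2 in brown with 2 present calls and 13.7, 14.6 and 22.4 in white with none, and was not tested under the filter. Col16a1, which also associates with fibrils, had 62.7, 41.8 and 88.5 in brown with no present call and 97.0, 128 and 143 in white with 1. When the filter was dropped, 3 of the 21 untested genes passed. Col12a1 was then higher in brown (1.72, adjusted p = 0.0131), and Col4a6 (-2.77, adjusted p = 7.84e-05) and Col16a1 (-0.98, adjusted p = 0.0307) were higher in white.

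The other genes without a call were dim as well, and some of them passed under another setting. Col8a1, a short-chain collagen of vessels, had 48.5, 38.6 and 46.6 in brown against 80.8, 42.4 and 47.7 in white (-0.30, adjusted p = 0.4), and passed with the deposited scaling (-0.77, adjusted p = 0.0386). Col8a2, its partner, had 22.9, 42 and 4.94 against 56.0, 52.3 and 34 (-1.47, adjusted p = 0.0949), and passed with control scaling (adjusted p = 0.0104), with the deposited scaling (0.0272) and when brown replicate 2 was left out (0.0153). The transmembrane collagen Col23a1 had 40.9, 60.4 and 90.2 in brown against 47.2, 41.2 and 54.2 in white (0.36, adjusted p = 0.338), and its direction turned with the deposited scaling (-0.11). The arrays of the tissues overlapped for all of these genes.

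**Figure D3:**
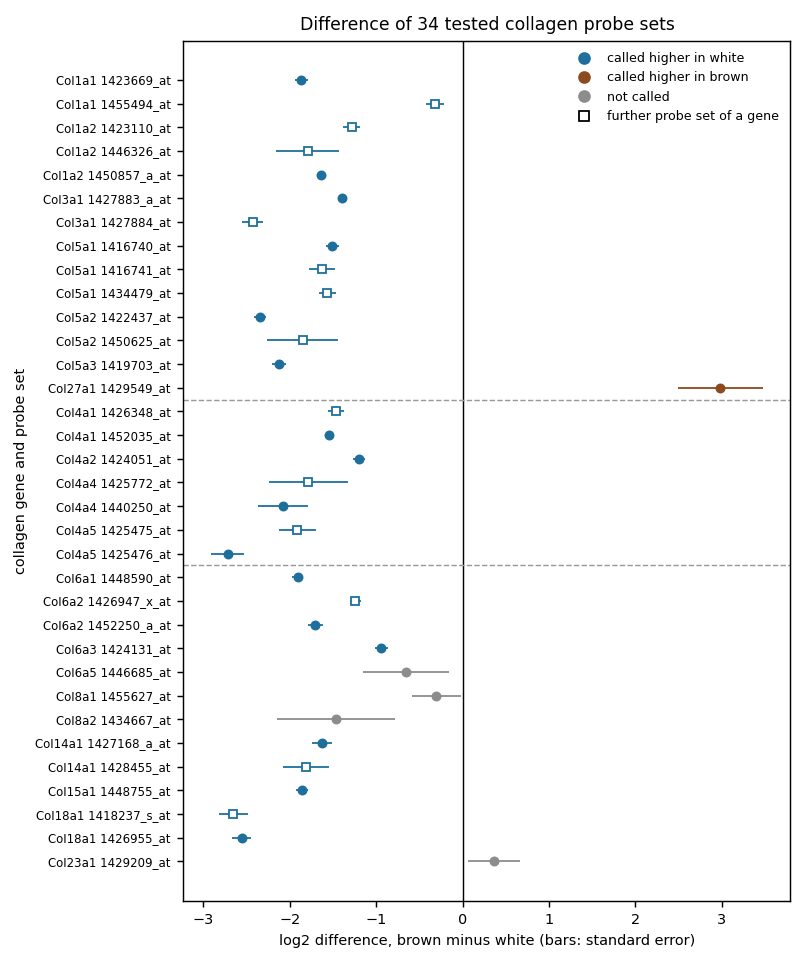
Points are log2 differences (brown minus white) with standard errors for the 34 tested collagen probe sets, filled circles for the probe set that stands for a gene and open squares for further probe sets, from the fibrillar class at the top over type IV to the others. Values below 0 are higher in white, and only Col27a1 is called above 0.

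Several probe sets of a gene gave the same direction but not the same size. Of 34 tested probe sets, 29 were called higher in white (29.9% of all 19819 tested) and 1 higher in brown (24.6% of all). In all 11 genes with more than 1 tested probe set, each probe set was called higher in white. The range within a gene was under 0.2 for Col4a1, Col5a1, Col14a1 and Col18a1. It was 1.55 for Col1a1, whose other probe set had 533, 458 and 537 in brown and 694, 649 and 567 in white (-0.32, adjusted p = 0.0252), which did not pass when brown replicate 2 (adjusted p = 0.074), white replicate 1 (0.0925) or white replicate 2 (0.0754) was left out. For Col3a1 the range was 1.04, with the dimmer probe set at -2.43, and for Col4a5 it was 0.80. The dimmer Col4a4 probe set (-1.79) did not pass without white replicate 2 (adjusted p = 0.0521). Sizes of single genes therefore carry a probe set term that the SE does not include.

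Chains of one collagen type were compared within arrays, over the 10 pairs of type I, IV, V and VI chains present on all 6 arrays. The measure was the log2 ratio of the probe set signals of the chains on each array. A shift of this ratio between the tissues can come from the probe sets as well as from the chains. For Col6a1 over Col6a3 the ratio was -0.13 ± 0.19 on the brown arrays and 0.84 ± 0.06 on the white ones (exact permutation p = 0.1, SD over n = 3), without overlap. For Col4a1 over Col4a5 it was 5.17 ± 0.43 against 4.0 ± 0.15, and for Col5a1 over Col5a2 it was 0.21 ± 0.06 against -0.63 ± 0.11 (exact permutation p = 0.1 for both, SD over n = 3). Col1a1 over Col1a2 differed by -0.23 (brown minus white), and Col6a1 over Col6a2 overlapped between the tissues (exact permutation p = 0.2). The smallest two-sided p that 3 against 3 arrays can give is 0.1, which is 0.111 after Benjamini-Hochberg adjustment over the 10 pairs, so no pair could pass 0.05. Probe sets of 1 gene differed by up to 1.55, as above, which is larger than each of the 10 shifts.

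Some collagen genes lie next to each other in the genome. By the RefSeq gene order, with only protein-coding genes counted, 7 neighbouring pairs of collagen genes were on the array. In 3 of them both genes were tested and called, namely Col3a1 with Col5a2, Col6a1 with Col6a2 and Col4a1 with Col4a2. All 6 genes were higher in white, against 32.2% of all genes. They belong to the 14 collagen genes present on all 6 arrays, and all 14 were higher in white. The shared direction of the pairs therefore says nothing about neighbouring genes. Col4a1 and Col4a2 lie on opposite strands of chromosome 8 and are read away from a common start region. In the other pairs at least 1 gene was not tested.

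Genes that make and assemble collagen were also mostly higher in white. In the list for folding and modification in the endoplasmic reticulum, 13 of 18 tested genes were higher in white and 1 higher in brown, with a median of -0.66 against -0.04 over all genes. Over all genes tested, 32.2% were called higher in white and 27.7% higher in brown. Of the 18 genes, 13 were present on all 6 arrays. Partner genes with no present call in brown, such as P4ha2 and Plod2, passed the filter through white. Sec24d, a coat protein for the export of large cargo (-1.97), P4hb, a subunit of prolyl 4-hydroxylase (870 ± 70.0 in brown against 3305 ± 130 in white, SD, n = 3; -1.93), the lysyl hydroxylase Plod2 (at least 3.10-fold) and P4ha2 (at least 2.78-fold) were higher in white. Tmem38b, an ion channel of the endoplasmic reticulum, was higher in brown (0.92), and the prolyl isomerase Ppib (-0.22, adjusted p = 0.327) and Ctage5 (-0.06, adjusted p = 0.675) were not called. Ctage5 was called higher in white with the deposited scaling (-0.48, adjusted p = 0.00463). In the list for propeptide cleavage and crosslinking, 8 of 11 were higher in white and 0 in brown (median -0.70), and 6 of the 11 were present on all 6 arrays. Bmp1, which removes the C-propeptide, was higher in white by at least 5.27-fold, and the enhancer of that step Pcolce2 (-2.0), the crosslinker of type IV collagen Pxdn (-1.83) and the lysyl oxidase Loxl1 (-1.65) were also higher there, while Loxl4 (0.01, adjusted p = 0.989) and Adamts3 (0.46, adjusted p = 0.279) were not called.

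Proteins that bind the fibres gave the most negative median of the partner lists. Of 14 tested, 13 were higher in white and 1 in brown (median -2.0), against 32.2% and 27.7% of all genes. Of the 14, 9 were present on all 6 arrays. The fibril-binding proteoglycan Fmod was higher in white by at least 14.8-fold. Fn1 had a log2 difference of -3.59 with no present call in brown, Ogn of -2.69 and Dpt of -2.60. Postn was higher in brown (0.41) and lost its call with the deposited scaling (0.09, adjusted p = 0.271) and with control scaling. Of the basement membrane partners of type IV, 8 of 10 were higher in white and 1 in brown (median -1.25), and 8 of the 10 were present on all 6 arrays. The linker proteins Nid1 (402 ± 19.6 in brown against 3586 ± 175 in white, SD, n = 3; -3.16) and Nid2 (-2.53) and the laminin chains Lama2 (at least 3.64-fold) and Lamc1 (-1.83) were higher in white. Agrn was higher in brown (0.48), a direction that turned with the deposited scaling (-0.06) and with control scaling (-0.06), and Lamc3 was not called (0.17, adjusted p = 0.572).

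Collagen receptors were called in both directions. Of 10 tested, 4 were higher in white, 3 in brown and 3 were not called, shares near the 32.2% and 27.7% of all genes, and the median of -0.03 was near that of all genes (-0.04). Antxr2 (-2.39) and Antxr1 (-1.77), anthrax toxin receptors that bind collagen, the collagen-activated kinase Ddr2 (-2.19) and the integrin subunit Itgb1 (-0.49) were higher in white. Itga1, the alpha subunit of a collagen IV-binding integrin, was higher in brown (406 ± 54.7 against 177 ± 30.5, SD, n = 3; 1.21), as were the proteoglycan Cspg4 (1.12) and Ddr1 (0.56). The call of Ddr1 was lost with median centring (adjusted p = 0.0675), the deposited scaling (0.02, adjusted p = 0.951) and control scaling. Adgrg1 (0.10, adjusted p = 0.581) and Mrc2 (-0.17, adjusted p = 0.723) were not called. With the deposited scaling Adgrg1 turned and was called higher in white (-0.43, adjusted p = 0.0204).

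Breakdown genes and their inhibitors went towards white together. In that list 9 of 10 were higher in white and 0 in brown (median -1.15), and 0 were higher in brown with each other scaling. The shares over all genes were 32.2% and 27.7%, and 7 of the 10 were present on all 6 arrays. The inhibitors Timp2 (-2.98) and Timp4 (-2.53), the membrane collagenase Mmp14 (-1.55) and the lysosomal protease Ctsl (-1.26) were higher in white. Timp1 was not called (-0.13, adjusted p = 0.634), but was called higher in white with the deposited scaling (-0.63, adjusted p = 0.0187). Of 15 genes of TGF-beta signalling, which induces collagen transcription, 13 were higher in white and 1 in brown (median -0.80). Of these, 10 were present on all 6 arrays. With the floor for absent calls, Ltbp1, which holds the latent ligand in the matrix, was 9.61-fold and the ligand Tgfb3 7.25-fold higher in white. Their brown signals, all called absent, were uneven, at 5.41, 33.9 and 39.6 for Ltbp1 and 28.2, 58.7 and 13.7 for Tgfb3. Both sizes therefore depend on the dimmest brown array. The target gene Ccn2 was at least 6.18-fold higher in white. The ligand Tgfb2 was higher in white too (-2.32, at least 4.99-fold for the probe set used, while another of its probe sets was present on 2 brown arrays). Ltbp2, a relative that does not bind the latent ligand, was higher in brown (624 ± 45.9 against 84.7 ± 2.67, SD, n = 3; 2.88), and Smad2 was not called (0.24, adjusted p = 0.204).

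**Figure D4:**
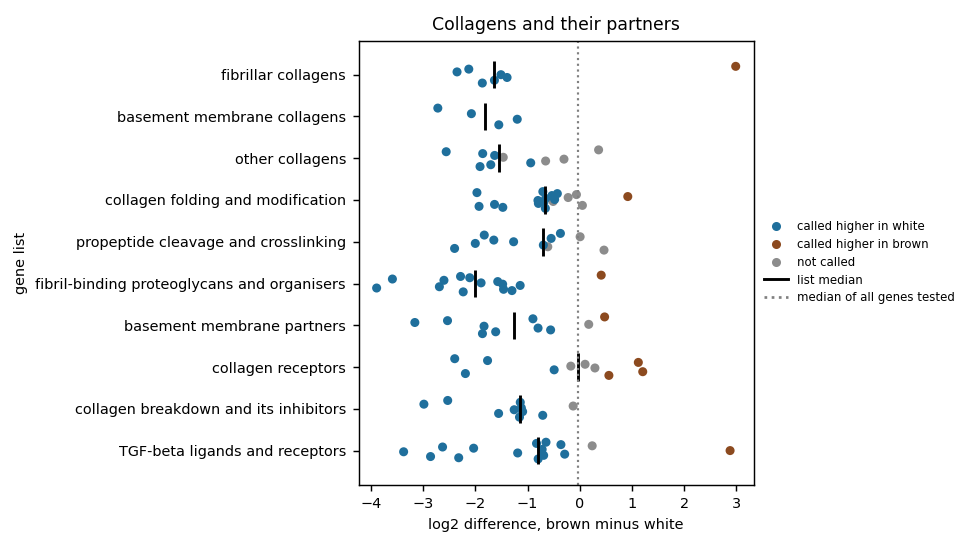
Points are log2 differences (brown minus white) of the tested genes of each collagen class and partner list, black lines are list medians, and the dotted line is the median of all genes tested. The receptor list has its median at -0.03 and the fibril-binding list at -2.0.

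Markers of several cell types, some of which make collagen, differed between the tissues as well. Of 13 fibroblast and progenitor markers other than collagens, 12 were tested and 11 were higher in white, with a summed signal of 5496 to 5653 in brown and 20070 to 20694 in white and Mfap4 absent on all arrays. All 10 mesothelial markers were higher in white, with sums of 327 to 352 and 4362 to 4388, and 12 of 13 macrophage markers, with sums of 3413 to 3912 and 20962 to 21612. Of the tested markers, 6 of 12 fibroblast and progenitor, 1 of 10 mesothelial and 12 of 13 macrophage ones were present on all 6 arrays. The mesothelial markers thus passed the filter mostly through white. Endothelial markers had sums of 4305 to 4625 in brown and 6181 to 6247 in white (8 of 13 tested higher in white, 1 in brown, Erg absent). Those of smooth muscle and pericytes were 6141 to 6578 and 8759 to 9271 (5 of 10 tested higher in white, 2 in brown, Cnn1 absent). The shares over all genes tested were 32.2% higher in white and 27.7% higher in brown. These counts moved with the scaling. Of the endothelial markers, 12 were higher in white and 0 in brown with the deposited scaling, and 10 and 0 with control scaling. For smooth muscle and pericytes the counts were 7 and 1 with either of these scalings. The summed signal of the Schwann cell marker list was brighter in brown (1001 to 1105 against 317 to 380.2). Of these 7 markers 3 were tested and 2 were higher in brown, with Ncam1, Gfap and Ngfr absent. S100b had means of 567 in brown and 22.3 in white, Mbp 202 and 83.9, and the uncalled Sox10 134 and 101. The skeletal muscle sum was also brighter in brown (1446 to 1966 against 697 to 858). Of these 12 markers 4 were tested and 2 were higher in brown, with Ckm, Myh2, Mylpf, Tnnt3, Tnni2 and Tnnc2 absent. Myl1 had means of 1011 in brown and 306 in white, and Ttn 61.8 and 40.4. The sums thus rest largely on S100b and Myl1, and do not by themselves give the amount of Schwann or muscle cells. Over all genes tested, 27.7% were called higher in brown, and shares of 3 and 4 tested markers are coarse. The muscle actin Acta1 had means of 81.6 in brown and 180.4 in white (-2.51, adjusted p = 0.122), and was called higher in white with the deposited scaling (adjusted p = 0.0496) and with control scaling (0.0105). The part of these cell types in the collagen differences was not tested. In whole tissue, fewer cells of a type and less RNA per cell cannot be told apart.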

How the data were processed

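Each deposited array file gives, per the file headers, a Signal intensity per probe set on a linear scale, a detection call and a detection p-value. The array files' scaling and software were not stated in any source used. The deposited table of the whole series holds signal intensities of unstated processing. Its columns correlated better with the array files of the opposite tissue (Spearman 0.826 to 0.887) than with those of their own (0.799 to 0.810), so the table served only as an alternative and its centring stayed unknown.

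Of 45037 probe sets other than 64 controls, 34945 had 1 gene symbol, 932 several and 9160 none. The 1 signal below 0.1 was set to 0.1, and log2 signals were quantile-normalised. Probe sets present on at least 3 of 6 arrays (19819) were fitted with limma 3.58.1 in R 4.3.3 (lmFit, eBayes with a trend, Benjamini-Hochberg over all of them, threshold 0.05, two-sided). The tested probe set with the highest mean signal stands for a gene. "At least" marks a probe set with only absent calls in the dimmer tissue, where each dim array takes the higher of its own signal and the lowest signal called present. The bound is for that probe set and not for the gene. It holds for the signals as measured and is no confidence limit. A single low array in the dimmer tissue can raise it. Folds are ratios of geometric means. Exact permutation tests used scipy 1.17.1.

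The members and lists were chosen with earlier results of these data known. The text names every tested collagen gene, and in each partner list up to 4 called genes per direction and up to 2 not called. Collagen genes without a tested probe set, and further probe sets, were named after their values were seen. On simulated data with 19819 probe sets, 89 of 100 changes of 2 and 55 of 100 changes of 1 on the log2 scale were called, and 7 of 19619 unchanged probe sets. Far fewer probe sets were changed there than were called in these data (5924 higher in white, 4885 higher in brown). These rates therefore do not carry over to the calls above. The alternatives covered scaling, filter, added signal, variance trend, replicate block, probe set choice and each array left out. Nothing states that the 3 samples of a tissue match the other tissue's by number, and p-values measure the spread between these samples.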

Additional observations from a re-analysis of the deposited data

How the results depend on the processing

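Under 16 alternatives other than the series table, no called collagen gene lost its call where it was still tested, and 322 of 329 gene values kept direction and side of the threshold. Col8a2 was called with the deposited and control scaling, with the replicate block (adjusted p = 0.0359) and without brown replicate 2, and Col8a1 with the deposited scaling. Col23a1 turned to -0.11 with both the deposited and control scaling. The median of the fibrillar genes was -1.88 with the deposited and the control scaling, -1.43 with median centring, -1.39 without a detection filter and -1.75 on genes present on all 6 arrays. That of the basement membrane genes was -2.07, -2.07, -1.63 and -1.55 with deposited scaling, control scaling, median centring and presence on all 6 arrays, -1.34 with 64 signal units added, and -1.92 to -1.64 with 1 array left out. For the other collagens it was -1.91 with deposited and with control scaling, -1.70 on genes present on all 6 arrays, -1.08 with 64 units added, -1.68 to -1.24 with 1 array left out and 0.20 without the filter, where genes at background enter. Without the filter 18 genes were higher in white, and 2 genes and 3 probe sets were higher in brown. Among genes present on all 6 arrays 0 were (limma, 0 also at an unadjusted p under 0.05), since Col27a1 was not tested there, and 0 probe sets. The replicate block gave 17 genes and 30 probe sets higher in white. Deviations of same-numbered samples correlated at 0.02, -0.01 and -0.05, which gives no sign of pairing, and not every sample correlated best with its own number.

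The series table with its columns as labelled gave the opposite direction: 18 genes higher in brown and 1 in white, that 1 being fibrillar and none of the type IV genes (0) or others (0, for both also at an unadjusted p under 0.05), with medians of 1.54, 1.46 and 1.47 for fibrillar, basement membrane and other genes. The log2 differences in it were 1.39 for Col1a1, 1.54 for Col1a2, 1.25 for Col3a1, 1.99 for Col5a1, 2.02 for Col5a2, 2.71 for Col5a3, -1.49 for Col27a1, 1.42 for Col4a1, 1.21 for Col4a2, 1.5 for Col4a4, 2.69 for Col4a5, 1.69 for Col6a1, 2.24 for Col6a2, 1.25 for Col6a3, 4.18 for Col6a5, 0.54 for Col8a1, 1.25 for Col8a2, 0.74 for Col14a1, 2.82 for Col15a1 and 3.28 for Col18a1, while Col23a1 (0.07) kept the sign it had in the array files. The cause was not tested. Dim probe sets limit what can be said of Col6a5, Col8a1, Col8a2, Col23a1 and the 21 untested genes.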
